A study of Mus musculus with 10 samples.

Results

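The comparison set 2 day 6 cultures of C2C12 cells side by side: cells that overexpressed USP10 and cells in which Huwe1 was knocked down. C2C12 is a mouse myoblast line that leaves the cell cycle, fuses and builds sarcomeres once growth serum is replaced by horse serum. All day 6 cultures described here had been kept in such differentiation medium. The USP10 cells were a stable line carrying a USP10 cDNA behind the EF1a promoter and gave 1 library; how the cDNA was delivered and its species are not given in the sources used here. The knockdown cells expressed one of 2 lentiviral hairpins against Huwe1, and the 2 libraries, 1 per hairpin, were pooled into 1 column of values. For these cells the viruses were added to myoblasts, followed by puromycin selection. The controls were wild-type C2C12 cells at the same day, with 1 column in each table. Wild-type and knockdown C2C12 myoblasts at day 0 served as a reference for the undifferentiated state. Day 8 myotubes, used only where all columns are compared, were controls and cultures with Huwe1 knocked down. In that day 8 knockdown the hairpin viruses were added to differentiated myotubes, again followed by puromycin selection.

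Members were the genes that reached 1 FPKM (fragments per kilobase of transcript, scaled to the library's total) in either culture. This held for 11351 of the 23388 genes present in both tables, and 10701 of them reached 1 FPKM in both cultures. The 5 members closest to the minimum had a higher value of 1.00 FPKM, and the 5 genes just outside it had 0.998 to 1.00 FPKM. For each gene the ratio of the USP10 value to the knockdown value was taken on the log2 scale with 0.01 FPKM added, and was centred on the median of the 10701 genes. No column has a replicate value of its own, so no test was possible, no error can be given, and every difference below is a description of these libraries. Replicate spread is unknown, and the only yardstick is how far apart the control columns of both tables stood.

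TBP, the TATA-binding protein, nucleates TFIID at promoters and is needed by all nuclear RNA polymerases. Huwe1 is a HECT-type E3 ubiquitin ligase that marks proteins such as Mcl1, Myc and p53 for the proteasome, whereas USP10 is a deubiquitinase that removes ubiquitin. The study placed the pair on opposite sides of TBP turnover: loss of the ligase and gain of the deubiquitinase would both keep TBP protein up. In differentiating myoblasts the factors MyoD and myogenin, with Mef2 proteins, switch on myosins, actins, troponins, calcium-handling proteins and muscle enzymes. The question was therefore at which genes both cultures ended at the same level and at which they did not. Protein levels were not measured in these files, so the RNA values say nothing on TBP protein.

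The hairpin targets, given because they define the knockdown, both lie in the coding sequence of Huwe1 on the + strand (GENCODE vM21, GRCm38, a transcript of 83 exons), and each matched no other gene. Target 1 lies within exon 32 at chrX:151883185-151883203. Target 2 spans the junction of exons 8 and 9, between chrX:151852544-151853408, with the bases of exon 9 in capitals.
knockdown 1: gggaacctgtgattcgaga
knockdown 2: gagaagaggACAACTAGTA

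Huwe1 (chrX:151803282-151935417) was listed at 21.9 FPKM in the knockdown culture, 41.0 FPKM with USP10, 44.7 FPKM in the control of the USP10 table and 35.1 FPKM in the control of the Huwe1 table. The knockdown column was the lowest of the 4 and lay 1.61-fold below its own control, while at day 0 the knockdown value was 15.2 FPKM against 38.3 FPKM in the control. The Huwe1 locus overlaps another listed gene, so some reads may be shared. Such an overlap was found for 2220 of the 11351 members. Among those named below, it holds for Mb, Ckm, Atp2a1, Cd34 and Mdk, and for others.

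Usp10 (chr8:119910852-119957557) was listed at 38.3 FPKM with USP10 and at 35.4 FPKM in the knockdown culture, 1.11-fold apart. Both stood above the controls, which had 10.3 FPKM in the USP10 table and 13.2 FPKM in the Huwe1 table. The overexpressing line was thus 3.70-fold above its control, and the knockdown culture, which carries no USP10 cDNA by its label, was 2.68-fold above its own. The day 0 control had 68.5 FPKM, higher than any of the day 6 columns. Usp10 RNA therefore did not separate the USP10 line from the knockdown culture. Whether the values count the cDNA and the cell's own gene alike is not known.

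Tbp (chr17:15499888-15517427) did separate them. It was listed at 89.6 FPKM with USP10, 14.6 FPKM in the knockdown culture, 27.8 FPKM in the control of the USP10 table and 10.8 FPKM in the control of the Huwe1 table. The USP10 value was the highest of all and stood 6.30-fold above the knockdown value. The controls, however, were already 2.73-fold apart in the same direction. Against its own control Tbp stood 3.22-fold higher with USP10 and 1.35-fold higher with the knockdown.

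**Figure D1:**
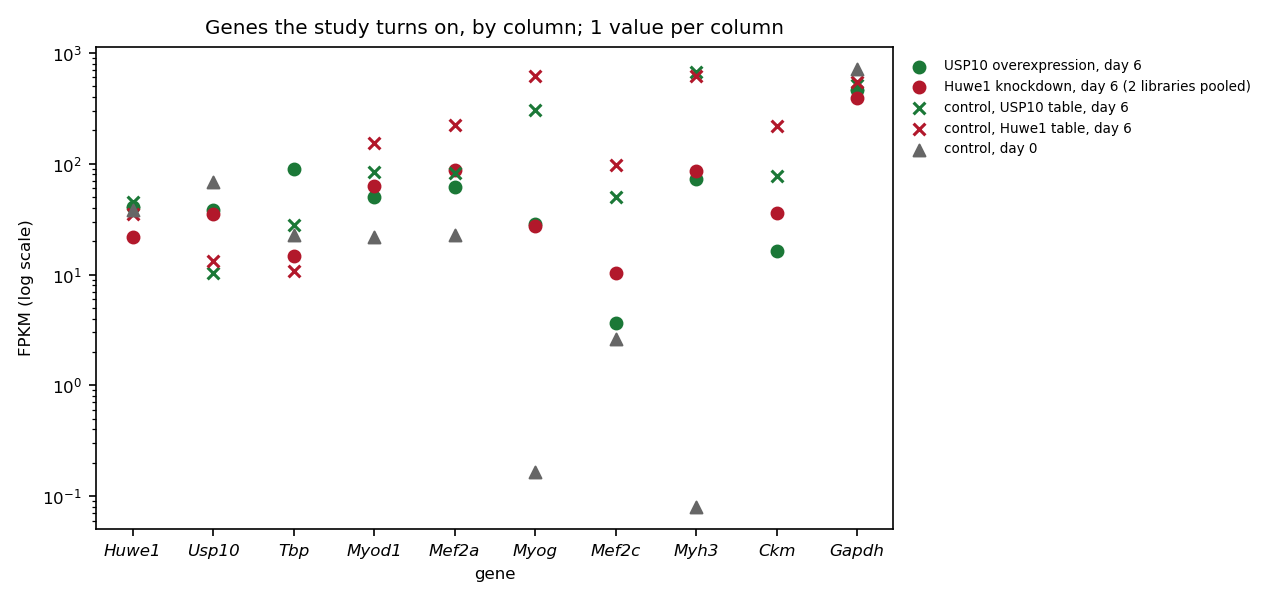
FPKM (log scale) of Huwe1, Usp10, Tbp, 6 muscle genes and Gapdh in 5 columns, with 1 point per column. Usp10, Myog and Myh3 have nearly equal USP10 and knockdown values (circles), below the day 6 controls (crosses) for Myog and Myh3 and above them for Usp10, while Tbp has 89.6 FPKM with USP10 against 14.6 FPKM with the knockdown. Ckm is listed at 0 in the day 0 control and has no day 0 point.

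Most members ended at close levels. Of the 10701 genes at 1 FPKM or more in both cultures, 5960 (55.7%) lay within 25% of each other, meaning that the higher centred value exceeded the lower by no more than 25%. The robust SD of the centred log2 ratio was 0.42, with quartiles at -0.27 and 0.29 and extremes at -3.86 and 4.85. Among all members, 471 (4.15%) stood 2-fold or more higher with USP10, 614 (5.41%) stood 2-fold or more higher with the knockdown, and 149 (1.31%) were 8-fold or more apart. These thresholds cut through a continuous range, as the 5 genes just inside 2-fold had log2 ratios of 1.00 on either side.

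The control columns were farther from each other than the USP10 and knockdown cultures were. Of 10358 genes at 1 FPKM or more in both controls, 4489 (43.3%) lay within 25%, and the robust SD was 0.56. Of 11459 genes at 1 FPKM or more in either control, 2284 (19.9%) were 2-fold or more apart and 403 (3.52%) were 8-fold or more apart. Both table headers name the same control, yet the values differ, and the labels give a single wild-type day 6 sample. It is therefore not known from which library the USP10-table control was computed. The depth, estimated from the steps between low FPKM values, was about 7.8e+06 fragments in the control of the USP10 table, 2.99e+07 in the control of the Huwe1 table and 2.77e+07 in the USP10 column. A gene at 1 FPKM on a transcript of 2000 bases would then rest on about 15.6, 59.8 and 55.4 fragments. The pooled knockdown column allowed no such estimate.

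The closeness held at every level of expression. Between 10 and 30 FPKM the robust SD was 0.38 for the USP10 and knockdown cultures against 0.52 for the controls, and at 100 FPKM or more it was 0.48 against 0.56. Genes at 1 to 3 FPKM had 0.46 against 0.71. Among these genes at 1 FPKM or more in both, the share at 2-fold or more apart ran from 5.17% (10 to 30 FPKM) to 10.8% (100 FPKM or more) in the USP10 and knockdown cultures, so the highest genes were the ones most often apart.

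**Figure D2:**
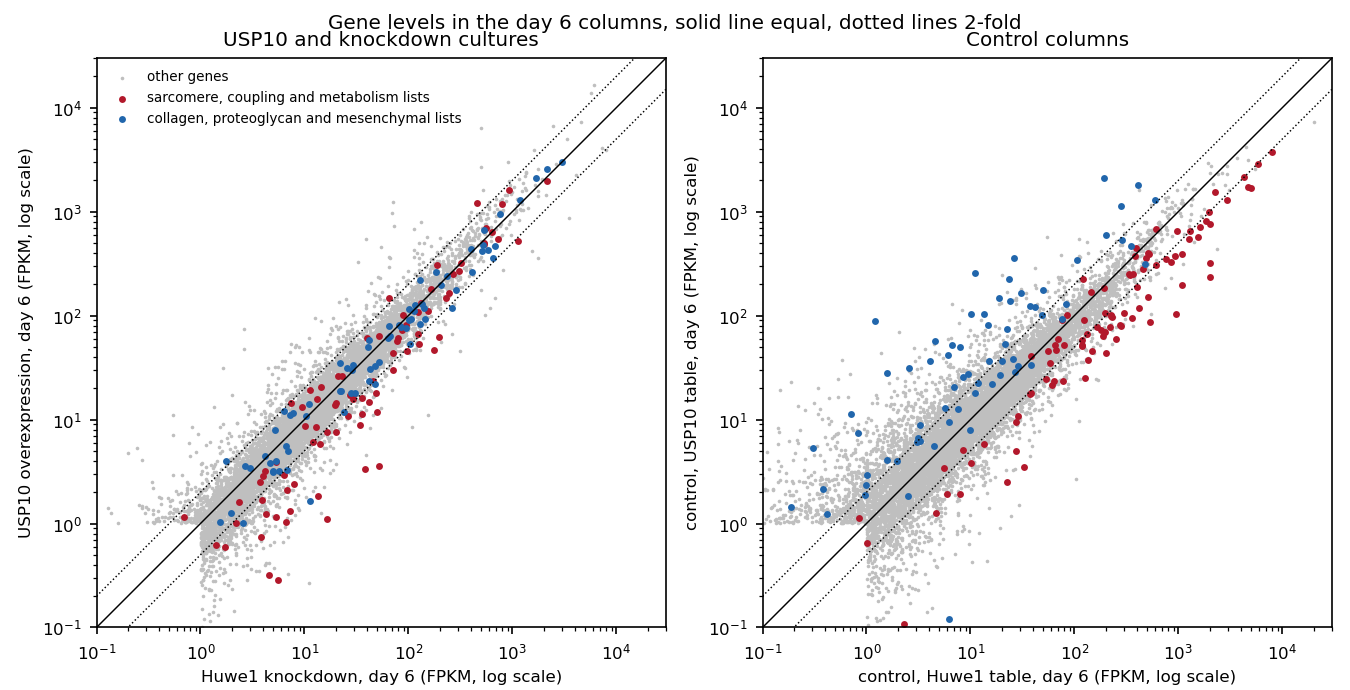
FPKM of each gene with USP10 (y axis) against the Huwe1 knockdown (x axis) on the left, and of the control of the USP10 table (y axis) against the control of the Huwe1 table (x axis) on the right, both on log scales, with values below 0.1 FPKM not drawn. The matrix lists (blue) scatter around the line of equality on the left and lie mostly above it on the right, and the muscle lists (red) lie mostly below it in both panels, with a robust SD over all genes of 0.42 on the left and 0.56 on the right.

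Among the 28 pairs that can be made of the 8 columns of day 0, 6 and 8, the USP10 and knockdown cultures were the second closest, with Pearson's r of 0.96 on the log2 scale across 10701 genes. Genes are not independent replicates, and the columns share the cell line. The closest pair was control and knockdown at day 0, with a robust SD of 0.27, and the next after the USP10 and knockdown pair was USP10 and its own control at 0.53. The knockdown culture stood 0.74 from its own control and 0.61 from the control of the USP10 table. Against the day 0 control the USP10 culture stood at 0.81 and the knockdown culture at 0.88, in both cases farther than from the culture's own control.

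**Figure D3:**
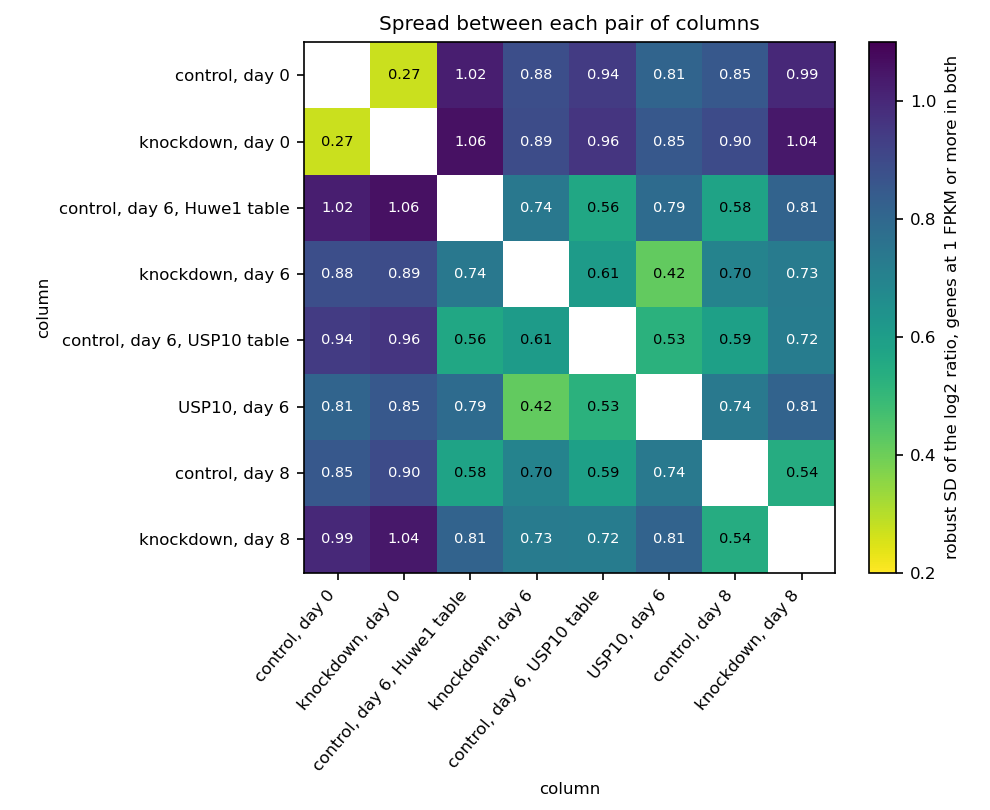
Robust SD of the centred log2 ratio for each of the 28 pairs of 8 columns, over genes at 1 FPKM or more in both columns of the pair. The USP10 and knockdown cultures at day 6 have 0.42, the lowest value of any pair that includes a day 6 column, and the control columns of day 6 have 0.56.

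The controls also bear on single genes. Of the 471 genes higher with USP10, 199 had controls 2-fold or more apart in the same direction, 23 in the other direction and 249 within 2-fold. Of the 614 genes higher with the knockdown, the numbers were 246, 90 and 278. Genes were called apart beyond the controls where they were 2-fold or more apart and still were so after the ratio of the controls was taken off, and this left 186 genes (1.64%) with USP10 and 284 (2.5%) with the knockdown. Conversely, of 1864 members whose controls were 2-fold or more apart, 1413 (75.8%) lay within 2-fold between the USP10 and knockdown cultures and 627 (33.6%) within 25%. Of 200 genes with controls 8-fold or more apart and 1 FPKM or more in both cultures, 145 (72.5%) lay within 2-fold.

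Low values were common among the genes apart. The other culture was below 1 FPKM for 103 of the 471 genes and for 282 of the 614. A level of 10 FPKM in either culture was reached by 295 of the 471 and by 221 of the 614. Small RNA genes, which a poly(A) library captures poorly, made up 21 of the 471 and 92 of the 614.

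Of the 18 myogenic regulators listed, 13 were members, with a median log2 ratio of -0.28, beside -0.81 between the controls. Of the members, 11 lay within 2-fold and 7 within 25%, and none was 2-fold higher with USP10. Over all members 10266 of 11351 lay within 2-fold, so the regulators were no closer than genes at large. This share is the background of every count within 2-fold below. For counts 2-fold or more higher, the background is 4.15% with USP10 and 5.41% with the knockdown. Myog, the gene of myogenin, was listed at 28.8 FPKM with USP10 and 27.1 FPKM with the knockdown against 305 and 619 FPKM in the respective controls. Both cultures were thus far below their controls and far above the 0.164 FPKM of the day 0 control. Myod1, the factor that commits cells to the lineage, had 50.4 and 62.7 FPKM, against 83.5 and 155 FPKM in the controls.

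The Mef2 factors, which act with MyoD on muscle promoters, were less alike. Mef2a had 62.1 FPKM with USP10 and 87.1 FPKM with the knockdown, against 83.3 and 224 FPKM in the controls. Mef2c had 3.69 and 10.3 FPKM, against 49.95 and 97.7 FPKM, and so stood higher with the knockdown by a log2 ratio of -1.44. The controls of Mef2c were apart in the same direction, at -0.88.

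Myosin genes of the thick filament were mostly lower with USP10, but so was their control. Of 17 members, 16 lay below the knockdown value, 8 of them by 2-fold or more, and none was 2-fold higher with USP10. Their median was -0.97, beside -1.02 between the controls and -0.01 over all members. Against their own controls, the members' median was -2.86 with USP10 and -2.84 with the knockdown.

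Within this family the isoforms differed. Myh3, the embryonic myosin heavy chain, was at 72.9 FPKM with USP10, 86.2 FPKM with the knockdown, 676 FPKM in the control of the USP10 table and 616 FPKM in the control of the Huwe1 table. Myh8, the perinatal form, was at 1.33, 7.22, 152 and 507 FPKM in the same order. The adult fast form Myh1 was at 3.38, 38.3, 235 and 2029 FPKM. Embryonic Myh3 was thus near equal between the cultures and between the controls. Myh1 was 69.3-fold below its control with USP10 and 53.02-fold below with the knockdown, and both the cultures and the controls were over 8-fold apart in the same direction. Adult Myh4 had the widest gap of the list, with 0.287 FPKM against 5.53 FPKM, and here the controls, at 46.9 and 66.8 FPKM, were close.

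The light chains ran higher than the heavy chains. Mylpf, the fast regulatory light chain, had 1953 FPKM with USP10 and 2146 FPKM with the knockdown, against 2857 and 5865 FPKM in the controls. Myl1, a fast essential light chain, had 519 and 1132 FPKM against 3769 and 7977 FPKM. The log2 ratios were -0.10 for Mylpf and -1.09 for Myl1, so that genes of one filament had unlike ratios.

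Thin filament genes had a different balance. Of 17 members, 7 were higher with USP10 and 10 with the knockdown, and the median was -0.08 beside -1.10 between the controls. Acta1, skeletal actin, was at 1599 FPKM with USP10 and 932 FPKM with the knockdown, although its controls stood the other way, at 2164 and 4282 FPKM. Tpm2, a tropomyosin, behaved alike, with 1216 and 461 FPKM against 1283 and 2925 FPKM in the controls, and was the 1 thin filament gene 2-fold higher with USP10. Tnnc2, the calcium-binding subunit of fast troponin, had 46.3 and 175 FPKM against 319 and 2015 FPKM.

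Of the 21 Z-disc and titin scaffold members, 15 were lower with USP10, 9 by 2-fold or more, with a median of -0.57 beside -0.64 between the controls. Tcap, the titin cap, had 1.15 FPKM with USP10 and 5.31 FPKM with the knockdown, although its controls were close at 41.2 and 38.5 FPKM. Klhl41, a kelch protein that stabilises nebulin, had 17.9 and 48.4 FPKM against 356 and 494 FPKM. Flnc, the muscle filamin, was instead near equal at 102 and 87.9 FPKM, against 253 and 339 FPKM. The gaps of Tcap and Klhl41 were thus wider than those of their controls.

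Calcium handling was lower with USP10, but so was its control. In the excitation-contraction coupling list 13 of 17 members lay below the knockdown, 7 by 2-fold or more (5.41% over all members). The median was -0.62 beside -1.12 between the controls. Controls of 11 members were 2-fold or more apart in the same direction, and 2 members were apart beyond the controls. Against their own controls, the members' median was -1.73 with USP10 and -2.12 with the knockdown. Casq1, the calcium-storing calsequestrin of fast fibres, was at 1.103 FPKM with USP10 and 16.3 FPKM with the knockdown, against 118 and 415 FPKM in the controls. Atp2a1, the fast-fibre calcium pump, had 11.9 and 49.9 FPKM against 86.1 and 530 FPKM. Bin1, a membrane-bending protein of the T tubules, was instead level at 323 and 321 FPKM.

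Muscle enzymes followed the same order, in the cultures and in the controls. Of 14 members, 6 were 2-fold or more higher with the knockdown (5.41% over all members) and 1 with USP10 (4.15%). The median was -0.71 beside -1.58 between the controls. Controls of 9 members were 2-fold or more higher in the Huwe1 table. Beyond the controls, 2 members were higher with the knockdown and 1 with USP10. Against their own controls, the members' median was -1.82 with USP10 and -2.79 with the knockdown. Mb, myoglobin, had the lowest ratio of any gene at 1 FPKM or more in both cultures, at 3.54 FPKM with USP10 and 52.6 FPKM with the knockdown, with controls of 199 and 1097 FPKM. Cox8b, a muscle subunit of cytochrome oxidase, had 1.86 and 13.6 FPKM against 37.4 and 134 FPKM. Ckm, muscle creatine kinase, had 16.2 and 36.2 FPKM against 78.1 and 219 FPKM. All of these had controls apart in the same direction. Cox6a2, another muscle subunit of cytochrome oxidase, stood the other way at 146 FPKM with USP10 and 64.8 FPKM with the knockdown.

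The receptor and synapse list (9 members) had a median of -0.27 and the fusion list (17 members) -0.44, beside -0.72 and -0.33 between the controls. In these lists 0 and 1 gene were 2-fold higher with USP10 and 2 and 4 with the knockdown. Tmem8c, the fusion protein myomaker, had 187 and 261 FPKM against 516 and 1399.7 FPKM in the controls. Trim72, a membrane-repair protein of muscle, had 3.26 and 18.9 FPKM, with controls at least as far apart, at 24.7 and 162 FPKM. Elmo1, an activator of Rac in fusing cells, was the gene of the list higher with USP10, at 52.7 and 8.34 FPKM, with controls of 1.80 and 0.0794 FPKM. Among 17 satellite and reserve cell genes the median was -0.27, beside 0.21 between the controls, with 14 within 2-fold. Cd34, a surface marker of quiescent satellite cells, had 93.2 and 145 FPKM, while its controls were at 27.8 and 1.59 FPKM.

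A further set was made of the genes far below control in both cultures. By 4-fold or more, 246 members (2.17%) stood below the control with USP10, 353 (3.11%) with the knockdown and 173 (1.52%) in both, which is 70.3% of the first list and 49.0% of the second. The controls may be the same sample, so this overlap was not read as a result. Of the 173 genes, 127 had 1 FPKM or more in all 4 columns. Between the USP10 and knockdown cultures 79 of these lay within 2-fold, 30 within 25%, 43 were 2-fold higher with the knockdown and 5 with USP10. Their median log2 ratio was -0.54, and that of their controls was -0.92. The double ratio, the difference between both comparisons, had a median of 0.20.

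Among these genes with 10 FPKM or more in both controls, the closest pair of values belonged to Ptgis, Serinc2, Ctxn3, Ephb2 and 4921524J17Rik. Ptgis, prostacyclin synthase, had 5.19 FPKM with USP10 and 5.26 FPKM with the knockdown, against 62.9 and 77.3 FPKM in the controls. Ctxn3 had 3.29 and 3.44 FPKM against 14.8 and 22.9 FPKM. Serinc2 had 2.94 and 3.02 FPKM against 23.5 and 38.4 FPKM. The farthest apart were Mb, Casq1, Myh1, Cox8b and Pygm, the muscle glycogen phosphorylase, at 1.03 and 6.66 FPKM. All of the farthest belong to mature muscle, and all had controls more than 2-fold apart as well.

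In the upward direction the lists were longer. By 4-fold or more, 481 members (4.24%) stood above the control with USP10, 1041 (9.17%) with the knockdown and 354 (3.12%) in both. Only 67 of the 354 had 1 FPKM or more in all 4 columns, since the controls were low. Of these 67 genes, 59 lay within 2-fold between the cultures and 24 within 25%, with a median of 0.04 beside 1.08 between the controls.

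Matrix genes had unequal controls but ratios between the cultures like those of genes at large. Of 30 proteoglycan and matricellular members, 26 lay within 2-fold and 15 within 25% (55.7% over all genes at 1 FPKM or more in both cultures), with a median of -0.01. In the controls 26 of the same 30 were 2-fold or more higher in the USP10 table, with a median of 2.49. Dcn, the small proteoglycan decorin, was at 3037 FPKM with USP10 and 2987 FPKM with the knockdown, against 50.3 and 7.94 FPKM in the controls and 1.27 FPKM in the day 0 control. Mgp, matrix Gla protein, had 2112 and 1697 FPKM against 227 and 23.5 FPKM. Sparc, a collagen-binding matricellular protein, had 2552 and 2144 FPKM against 1308 and 601 FPKM. These genes were higher in both cultures than in either control.

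The 24 collagen members leaned towards the knockdown, with 17 higher there, 2 of them by 2-fold or more, and a median of -0.50 beside 1.40 between the controls. The fibrillar collagens Col1a2 and Col3a1 had 265 and 471 FPKM with USP10, and 409 and 685 FPKM with the knockdown. Col4a1, of basement membranes, had 22.0 and 47.6 FPKM. Serpinh1, the collagen chaperone, was level at 438 and 403 FPKM. The tilt was small and of the opposite sign to that of the controls.

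The mesenchymal and adipogenic list (19 members) had no gene 2-fold apart either way and a median of 0.13, beside 1.08 between the controls. Ly6a, the progenitor surface antigen Sca-1, had 429 and 584 FPKM against 31.3 and 2.54 FPKM in the controls. The smooth muscle and SRF target list (20 members) likewise had none 2-fold apart and 15 within 25%. The median was -0.06, beside 0.68 between the controls. Vim, the filament of mesenchymal cells, stood at 1426 and 1768 FPKM, against 766 and 294 FPKM. Des, the muscle intermediate filament, had 983 and 1083 FPKM against 1053 and 1769 FPKM, and Ankrd1, a stretch-responsive sarcomere protein, had 1621 and 1363 FPKM against 3116 and 4645 FPKM. In this list muscle and non-muscle genes were alike near equal.

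**Figure D4:**
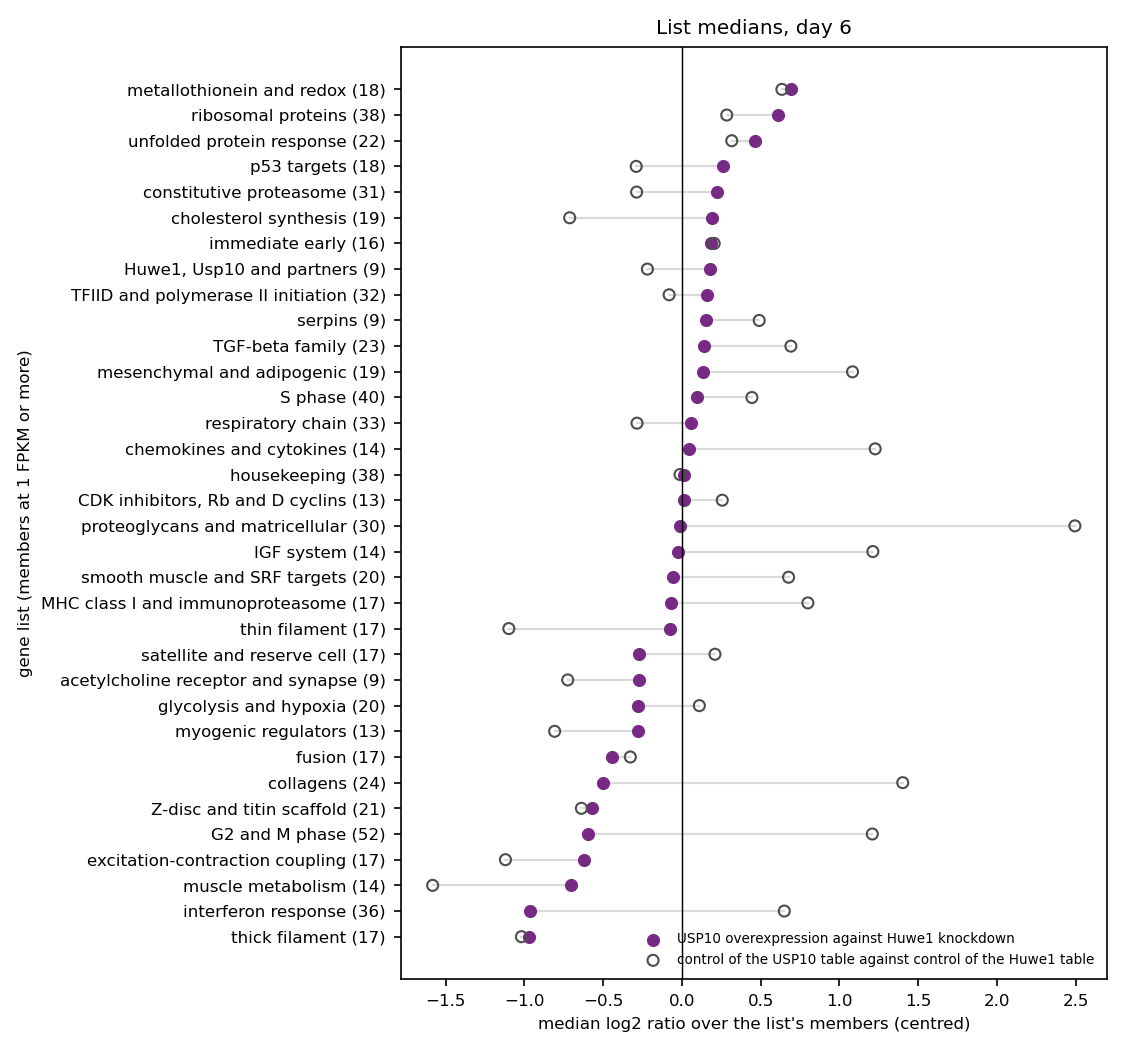
Median centred log2 ratio over the members of each list but the 4 marker lists of other cell types, which have 2 or 3 members, for USP10 against the knockdown (filled circles) and for the control of the USP10 table against the control of the Huwe1 table (open circles), with the number of members in brackets. The USP10 and knockdown medians run from -0.97 (thick filament) to 0.69 (metallothionein and redox), and proteoglycans sit at -0.01 where their controls sit at 2.49.

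Of 52 members for G2 and M phase, 45 were higher with the knockdown, 8 by 2-fold or more (5.41% over all members), with a median of -0.60 where the controls had 1.21. Kif20a, a kinesin of cytokinesis, had 1.87 FPKM with USP10 and 5.24 FPKM with the knockdown, against 1.61 and 1.37 FPKM in the controls. Anln, which builds the cleavage furrow, had 4.85 and 10.5 FPKM against 1.99 and 1.80 FPKM. Birc5, survivin, had 2.91 and 5.99 FPKM against 4.87 and 1.66 FPKM. The highest members went the other way: Smc4, of the condensin complex, had 42.1 FPKM with USP10 and 30.2 FPKM with the knockdown, and Bub3, a spindle checkpoint protein, had 36.0 and 29.2 FPKM, in both cases with controls apart to a like degree.

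S phase genes were divided. Of 40 members 22 were higher with USP10 and 18 with the knockdown, and 39 lay within 2-fold. The median was 0.10, beside 0.44 between the controls. Pcna, the replication clamp, had 87.2 and 62.3 FPKM, against 63.8 and 55.5 FPKM in the controls. The CDK inhibitors, Rb family and D cyclins (13 members) had a median of 0.01, beside 0.26 between the controls, with all 13 within 2-fold. Cdkn1a, the p21 inhibitor that accompanies cell cycle exit, is on this list and on that of p53 targets, where all 18 members lay within 2-fold.

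Interferon-response genes stood higher with the knockdown almost throughout. Of 36 members, 35 were higher with the knockdown, 17 by 2-fold or more (5.41% over all members), and 13 were apart beyond the controls. The median was -0.97, beside 0.65 between the controls. Against their own controls the medians were 2.21 with USP10 and 3.70 with the knockdown, so the list stood above the control in both cultures.

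Ifit1, which binds viral RNA, had 3.88 FPKM with USP10 and 15.4 FPKM with the knockdown, against 0.288 and 0.275 FPKM in the controls. Ifi27l2a had 12.9 and 54.4 FPKM against 1.27 and 0.864 FPKM. Oasl2, of the oligoadenylate synthetase family, had 3.60 and 8.28 FPKM against 0.0797 and 0.0519 FPKM. Ifit2, one of the highest members, was only slightly apart at 19.9 and 30.5 FPKM. The controls of these genes were low and close, and the gap appeared between the USP10 and knockdown columns.

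The MHC class I and immunoproteasome list (17 members), which interferon also drives, was level between the cultures, with a median of -0.07 and 15 within 2-fold. The median between the controls was 0.80. B2m, the MHC light chain, had 1195 and 1242 FPKM against 402 and 136 FPKM in the controls. Among the 14 chemokine and cytokine members the median was 0.04, beside 1.23 between the controls. Of these, 4 genes were 2-fold higher with USP10 and 2 with the knockdown. Cxcl12, which guides muscle progenitors, had 97.4 and 102 FPKM against 14.6 and 1.252 FPKM. Cxcl1, a neutrophil attractant, had 13.5 and 2.94 FPKM, and Csf1, a macrophage growth factor, had 78.1 and 37.7 FPKM. For both genes the controls stood farther apart in the same direction, at 6.90 and 0.490 FPKM for Cxcl1 and at 113 and 8.24 FPKM for Csf1. Il15, a cytokine made by muscle, had 4.44 and 12.4 FPKM, with controls apart in the opposite direction by a log2 ratio of 1.42. The list had no common order between the cultures. Against their own controls, the members' median was 2.59 with USP10 and 3.39 with the knockdown. By 2-fold or more, 10 and 13 of the 14 members stood above control, and 0 stood below in either culture. Over all 11351 members, 1207 and 2121 stood 2-fold or more above. Csf1 was an exception that stood below its control with USP10, by less than 2-fold.

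Markers of other cell types were mostly below 1 FPKM. The macrophage markers had 2 members of 11 genes found. Their summed levels were 7.48 FPKM with USP10 and 6.09 FPKM with the knockdown, and 6.73 and 2.25 FPKM in the controls. Against their own controls, the 2 members had medians of 0.11 with USP10 and 1.23 with the knockdown. Of the macrophage markers that were not members, Emr1 and Tyrobp were listed at 0 in every day 6 column. The endothelial markers had 2 of 10, with sums of 7.25 and 7.90 FPKM, of which Cdh5 gave 6.81 and 6.83 FPKM, and 0.436 and 0.0857 FPKM in the controls. The epithelial markers had 2 of 10 (5.32 and 4.10 FPKM, 3.55 and 0.624 FPKM in the controls), and the neural and Schwann markers 3 of 10 (22.7 and 47.6 FPKM, 7.59 and 0.758 FPKM). These sums stood higher in both cultures than in their controls. Their part in the results was not tested. In a bulk culture fewer cells of a kind and less RNA per cell cannot be told apart.

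Genes higher with USP10 were led by Gsta2, Ucp2, Polr2a, Golga5, Rnps1, Snx3, Slc2a1, Nme4, Tmem39a, Gpd1l, 1700037H04Rik and Trmt5, the 12 most apart of those that also exceeded the controls. Polr2a, the largest subunit of RNA polymerase II, had 1226 FPKM with USP10, 70.8 FPKM with the knockdown, 383 FPKM in the control of the USP10 table and 74.9 FPKM in the control of the Huwe1 table. It was 17.7-fold apart between the cultures and 5.42-fold apart between the controls. The knockdown equalled its control, and the USP10 value exceeded every other column, the day 0 control at 204 FPKM included.

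Several genes shared this shape. Golga5, a Golgi tether, had 546 FPKM with USP10 and 38.9 FPKM with the knockdown, against 196 and 41.9 FPKM. Slc2a1, the basal glucose transporter, had 329 and 32.8 FPKM against 164 and 34.5 FPKM. Rnps1, a splicing regulator of the exon junction complex, had 961 and 68.9 FPKM against 154 and 70.6 FPKM. Snx3, an endosomal sorting nexin, had 728 and 72.1 FPKM against 98.0 and 61.1 FPKM. In all of these the knockdown and its control were near equal while both columns of the USP10 table were higher.

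Other genes of the group behaved differently. Gsta2, a glutathione transferase, had 31.5 and 1.64 FPKM with controls of 0.539 and 0.140 FPKM, so it stood far above control with USP10. Ucp2, a mitochondrial uncoupling protein, had 47.8 and 2.64 FPKM with controls of 133 and 19.5 FPKM, and so stood below control in both. Gpd1l had 31.2 and 4.51 FPKM with close controls at 21.1 and 24.2 FPKM, and Trmt5, a tRNA methyltransferase, had 49.8 and 8.06 FPKM with 18.3 and 11.7 FPKM. The gap of Gpd1l was thus a low knockdown value.

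The transcription machinery around Tbp and Polr2a did not share their gap. Of 32 TFIID and polymerase II initiation members, 30 lay within 2-fold and 18 within 25%, with a median of 0.16. The only genes 2-fold apart were Tbp and Polr2a. Over all members 10266 of 11351 lay within 2-fold, and 55.7% of genes at 1 FPKM or more in both cultures lay within 25%. The shares of the list were thus close to those of genes at large. Taf9, a TFIID subunit, had 88.8 and 75.6 FPKM, and Gtf2f1, a subunit of TFIIF, had 82.0 and 61.5 FPKM. In the list of Huwe1, Usp10 and their partners, which counts Huwe1 itself, 7 of 9 members lay within 2-fold. The exceptions, Tbp and Myc, were higher with USP10. Myc, a growth-promoting transcription factor that Huwe1 ubiquitinates, had 47.3 and 14.5 FPKM against 31.1 and 21.4 FPKM. Mdm2 had 58.8 and 55.3 FPKM, and Mcl1 had 54.9 and 54.4 FPKM.

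Ribosomal protein genes all leaned one way. All 38 members were higher with USP10, 9 by 2-fold or more (background 4.15%), with a median of 0.61 beside 0.28 between the controls. Their summed level was 38082 FPKM with USP10 and 21428 FPKM with the knockdown. Rps9 had 2714 FPKM with USP10 against 502 FPKM with the knockdown, where the controls were level at 548 and 538 FPKM. Rplp1, of the ribosomal stalk, had 6613 and 2475 FPKM against 2279 and 2947 FPKM. Many ribosomal protein genes have processed pseudogenes, and how reads were split among copies is not given in the sources used here, so single values are uncertain. The shift ran through the whole list, with log2 ratios from 0.20 to 2.47, and was largest for a few genes. Beyond the controls, 4 members were higher with USP10 (1.64% over all members).

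Stress and redox genes were also higher with USP10. The metallothionein and redox list had 16 of 18 members higher with USP10, 4 by 2-fold or more, with a median of 0.69 beside 0.63 between the controls. Gsta4, which conjugates lipid aldehydes, had 504 and 126 FPKM against 62.8 and 33.1 FPKM. Srxn1, sulfiredoxin, had 21.5 and 9.02 FPKM against 6.28 and 4.14 FPKM, and Hmox1, heme oxygenase, had 47.2 and 21.5 FPKM against 38.9 and 42.7 FPKM. In the unfolded protein response list 18 of 22 members were higher with USP10, 6 by 2-fold or more, with a median of 0.46 beside 0.32. Hspa5, the chaperone BiP, had 954 and 459 FPKM against 781 and 484 FPKM, and the ATF4 targets Trib3 and Slc7a11 had 82.4 and 13.8 FPKM with USP10 against 28.3 and 4.68 FPKM with the knockdown. For both lists the median gap was of the size of the gap between the controls.

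Immediate early genes were mixed. Of 16 members, 3 were 2-fold higher with USP10 and 2 with the knockdown, with a median of 0.19 beside 0.21 between the controls. Atf3, a stress-induced factor, had 62.4 and 21.2 FPKM. Id2, an inhibitor of MyoD-type factors and a member of the satellite list, had 9.02 and 1.65 FPKM against 14.0 and 10.6 FPKM, so that its gap was a low knockdown value.

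Genes higher with the knockdown were led by Mb, Casq1, Cox8b, Neat1, Nov, Mettl20, Plxdc2, C1qtnf3, Crip1, Clec3b, Frmpd1 and Ifi27l2a under the same rule. Neat1, the architectural RNA of paraspeckles, had 45.4 FPKM with USP10 and 316 FPKM with the knockdown, against 67.2 and 148 FPKM in the controls. It was higher than control with the knockdown and lower than control with USP10. At day 0 it was also higher in the knockdown, at 148 FPKM against 54.2 FPKM.

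The rest included secreted proteins. Nov, a matricellular CCN protein, had 1.64 and 11.2 FPKM against 0.433 and 0.0282 FPKM, and Clec3b, tetranectin, had 3.30 and 14.7 FPKM against 4.01 and 0.386 FPKM. C1qtnf3, a C1q-related secreted protein, had 8.21 and 42.4 FPKM against 224 and 469 FPKM. Crip1, a LIM-domain protein, had 148 and 677 FPKM, with level controls of 143 and 168 FPKM. For Nov and Clec3b the controls were apart in the opposite direction, while C1qtnf3 was below its control in both cultures.

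**Figure D5:**
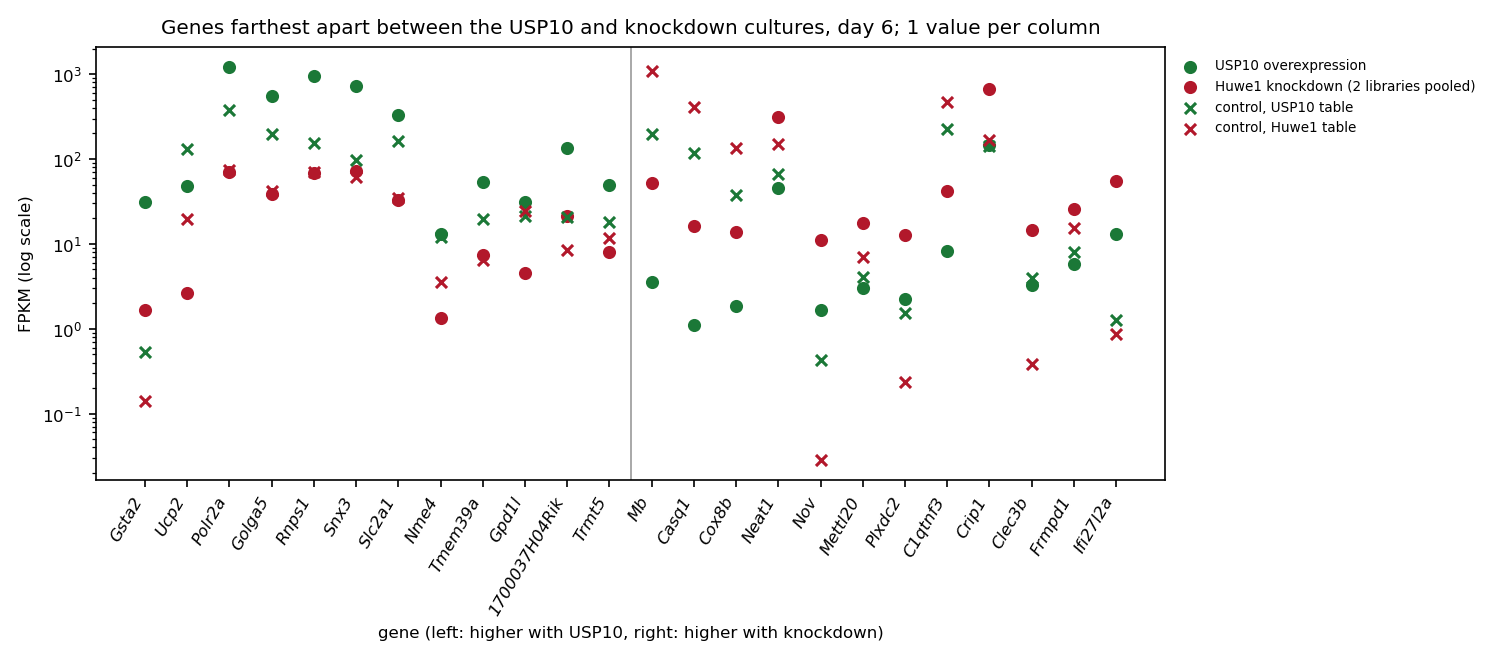
FPKM (log scale) in the 4 day 6 columns for the 12 genes most higher with USP10 (left of the line) and the 12 most higher with the knockdown (right) among genes also apart beyond the controls, with 1 point per column. Polr2a, Golga5, Rnps1 and Slc2a1 have a knockdown value (red circle) on top of its control (red cross) and both USP10-table values (green) above, whereas Crip1 has all but the knockdown value together near 150 FPKM.

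The TGF-beta family had 3 of 23 members 2-fold higher with the knockdown and none with USP10. The median was 0.14, beside 0.69 between the controls. Tgfbr2, the type II receptor, had 61.2 and 137 FPKM against 41.8 and 32.9 FPKM. Bmp1, a procollagen protease, had 16.8 and 46.5 FPKM against 13.8 and 10.6 FPKM. Ctgf, a target of that pathway from the proteoglycan list, had 119 and 260 FPKM against 42.1 and 6.04 FPKM. Tgfbr2, Bmp1 and Ctgf were thus higher with the knockdown, while 13 of the 23 family members were higher with USP10 and the family as a whole was level.

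The IGF system list (14 members) had a median of -0.03, beside 1.21 between the controls, with 12 within 2-fold. Serpins (9 members) had 0.15, beside 0.49, with all 9 within 2-fold. Median values were also near 0 for p53 targets (18 members, 0.26), proteasome subunits (31 members, 0.22), the respiratory chain (33 members, 0.05), cholesterol synthesis (19 members, 0.19), glycolysis and hypoxia (20 members, -0.28) and housekeeping genes (38 members, 0.02). Between the controls, the medians from p53 targets to housekeeping genes ran from -0.71 (cholesterol synthesis) to 0.11 (glycolysis and hypoxia). In each of these lists at most 3 genes stood 2-fold or more apart in the same direction. Cyc1, cytochrome c1, was the respiratory gene apart, at 429 and 113 FPKM with controls of 178 and 190 FPKM. Gapdh had 463 FPKM with USP10 and 389 FPKM with the knockdown, against 511 and 547 FPKM.

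Some genes were seen in a single culture, and those named here had a locus of 500 bases or more and a completed or untested estimate. The highest listed below 0.1 FPKM with USP10 were Snord100, Snord66, Snord91a, Snord96a and Snord69, at 1317, 1072, 1003, 214 and 207 FPKM with the knockdown and at 0 with USP10. All of them were at 0 in the control of the USP10 table too, and all but Snord69, also at 0 there, had 369 to 2065 FPKM in the control of the Huwe1 table. In the other direction Mir1949 had 118 FPKM with USP10 and 0 with the knockdown, while its controls stood the opposite way at 0 and 219 FPKM. Mdk, the growth factor midkine, had 10.8 FPKM with USP10 and 0.0253 FPKM with the knockdown, with controls of 12.4 and 0.258 FPKM. Over all members the highest log2 ratio was 17.04, above the 13.57 of Mir1949, so genes outside these limits were farther apart. Of the genes named here, all but Mdk are small RNA genes. Of 764 such genes, 76 were above 0 with USP10, 138 with the knockdown, 34 in the control of the USP10 table and 104 in the control of the Huwe1 table, so both columns of the Huwe1 table held more of them.

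Chromosome medians of the log2 ratio ran from -0.07 to 0.03 over 20 chromosomes, beside -0.14 to 0.21 between the controls. In 9500 runs of 25 neighbouring genes the medians ran from -0.36 to 0.55, and 64 runs were beyond 25%, beside 915 for the controls. The highest run lay at chr13:12614065-20608356 (build mm10), with Elmo1 as its last gene, where the controls had 0.45 as well. Neighbouring runs overlap and are not independent. Transcript length had a shallow trend, with medians from 0.09 in the shortest of 5 classes to -0.10 in the longest, and the GC classes ran from -0.06 to 0.02.

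As TBP binds the TATA box, 60 bases before the start are shown for genes of contrasting behaviour, with TATAAA in capitals (RefSeq, GRCm38.p6, 5′ to 3′ on the gene's strand): Polr2a (chr11:69758634-69758693, - strand), far higher with USP10, Myh1 (chr11:67200042-67200101, + strand), higher with the knockdown, Myh3 (chr11:67078240-67078299, + strand), level, and Tbp (chr17:15499828-15499887, + strand), higher with USP10.
Polr2a: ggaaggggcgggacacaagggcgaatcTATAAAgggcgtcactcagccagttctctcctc
Myh1: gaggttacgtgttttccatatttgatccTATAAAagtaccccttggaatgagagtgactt
Myh3: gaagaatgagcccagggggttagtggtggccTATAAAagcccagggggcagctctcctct
Tbp: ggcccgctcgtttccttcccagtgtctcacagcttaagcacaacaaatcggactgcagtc

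The exact letters TATAAA, searched on the gene's strand with the first base 40 to 20 bases before the start, were found 33 bases before the start of Polr2a, 32 bases before that of Myh1, 29 bases before that of Myh3, and not in this window of Tbp. Over all 27025 genes with a promoter sequence 623 (2.31%) held them. Polr2a, Myh1 and Myh3 are single carriers and do not stand for their directions. Among the 12 genes most apart each way, of those with a promoter sequence, only Polr2a held the motif. Gsta2, Golga5 and Snx3, higher with USP10, lacked it in this window. Mb, Casq1 and Cox8b, higher with the knockdown, lacked it too, as did Myog, which was level. The sequences shown therefore do not tell whether the motif goes with a direction. A comparison of classes was void, since a sequence was matched for only 74.3% of the genes 2-fold higher with USP10 and 63.0% of those higher with the knockdown, below the 80% needed.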

How the data were processed

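Poly(A) RNA was made into directional ScriptSeq v2 libraries and sequenced on a HiSeq 2000. The authors mapped reads with Tophat (Bowtie2 and Cuffdiff, build mm10, per the submitters' processing notes, versions not given in the sources used here) and deposited Cuffdiff tables of FPKM values, 1 value per gene and condition, in which replicate libraries were pooled and each table was normalized on its own. The tables also hold the authors' fold changes, test statistics, p-values and q-values, which were not used.

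Values of the USP10 table and of the day 6 Huwe1 table were joined by gene, 0.01 FPKM was added, and log2 ratios were centred on the median of genes at 1 FPKM or more in both columns (shift -0.04 for the cultures, -0.08 for the controls). The day 0 and day 8 tables served the comparison of columns. The robust SD is the median absolute deviation scaled to a normal SD. The control ratio was computed in the same way and taken off for the double ratio. Ratios against a culture's own control were not centred. Depth was estimated from the spacing of low FPKM values on transcripts of 1500 bases or more. The steps, run in Python 3.11.15 with pandas 2.3.3 (numpy 2.4.6; figures with matplotlib 3.10.9), were tested on simulated data.

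The members and the 38 gene lists were chosen with earlier results of these data known. Genes named were those the study measured and the 12 most apart each way beyond the controls among genes at 10 FPKM or more. Also named were up to 5 of the highest each way at 5 FPKM or more in a single culture. Both of these groups needed a locus of 500 bases or more, the first with a completed estimate, the second with a completed or untested one. Up to 3 highest and 3 most apart of each list were named as well. The last group was the 5 closest and 5 farthest among genes 4-fold below both controls. Alternatives were pseudocounts of 0.1 and 1 FPKM, minimums of 5 FPKM or of 1 FPKM in both, 3 other centrings, completed estimates only, longer loci, a limit of 1.5-fold for equal levels and, chosen after seeing the data, small RNA genes left out and a minimum over all 4 columns. Per the labels, hairpin targets are those printed; the methods list other target sequences.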

Additional observations from a re-analysis of the deposited data

Results flagged for a closer look

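In the results below the USP10 culture stood on one side of its own control and the knockdown culture on the other side. The values are the USP10 log2 ratio minus the knockdown log2 ratio, each against its own control. With 1 value per column none of these differences was tested. The genes other than Aspn were named after their values were seen. Of 11351 members, 1473 stood 2-fold or more from their own control in both cultures. Of these, 535 were lower in both cultures, 868 were higher in both and 70 stood on opposite sides. Both table headers name the same control, so the split between same and opposite sides was not read as a result. Among the 70, 12 members stood above the control with USP10 and below it with the knockdown, and 58 stood the other way. Those with 1 FPKM or more in all 4 columns and 10 FPKM or more in either culture numbered 2 and 10. The 11 of these with a completed estimate on a locus of 500 bases or more are given.

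For the G2 and M phase list the difference of the medians was -1.88, with medians of -0.28 with USP10 and 1.60 with the knockdown. For the IGF system list it was -1.39, with medians of -0.82 and 0.57. In both lists the controls differed in the opposite sense, with medians of 1.21 for each list in favour of the control of the USP10 table.

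Matrix and secreted proteins made up much of the gene set. Bgn, the proteoglycan biglycan, had -3.10, with 667 FPKM with USP10, 531 FPKM with the knockdown, and 2089 and 194 FPKM in the respective controls. Mmp2, a gelatinase, had -3.84, with 61.5 and 64.1 FPKM against 359 and 26.1 FPKM. Omd, osteomodulin, had -6.47, with 18.96 and 22.6 FPKM against 89.5 and 1.20 FPKM. These genes were near equal in the cultures and far apart in the controls.

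Similar values were found for Prelp (-4.63), Olfml3 (-3.95), Fam20a (-2.95) and Crabp2 (-4.45), the last with 32.8 and 36.6 FPKM against 130 and 6.65 FPKM. Aspn, asporin, had -5.01, Anxa8 had -3.00, Sdpr had -2.99 and Fam101b had -2.46. Anxa8 was less alike in the cultures, at 37.1 and 81.5 FPKM. Myh14, a non-muscle myosin heavy chain, had the opposite sign, at 2.54, with 10.6 and 6.30 FPKM against 3.97 and 13.8 FPKM.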

How the results depend on the processing

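No paired analysis was possible because the tables hold no replicate values, and for the same reason no library could be left out of the pooled knockdown column. The count 2-fold or more higher with the knockdown, 614 here, was 344 with a pseudocount of 1 FPKM, 323 with a minimum of 5 FPKM and 332 with 1 FPKM in both cultures. The count beyond the controls, 470 in both directions, was 288, 284 and 272 under these settings. The controls 2-fold or more apart, 2284 here, were 1383 and 1437 under the last 2 settings. The count 4-fold below control in both, 173 here, was 88 with a minimum of 5 FPKM and 447 with 1 FPKM in any of the 4 columns. The minimums test fewer or more low genes, and the pseudocount shrinks ratios of low values. The other 52 recomputed counts stayed within 1.5 times. Of 38 list medians under 10 settings, 7 values moved. With a minimum of 5 FPKM muscle metabolism went from -0.71 to -1.13, endothelial markers (2 genes) went from -0.60 to between -0.23 and 0.03 under 4 settings, and epithelial markers (2 genes, 1 listed at 0) went to 2.11 and 0.72 with larger pseudocounts and turned from 3.74 to -0.40 with 1 FPKM in both and with completed estimates only. Of 240 values for 48 named genes, 24 moved, and the only changes of sign were for Serinc2, Ephb2 and Ptgis, whose ratios lie near 0.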
